A study of Mus musculus with 8 samples.

Results

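The platelet-derived growth factor (PDGF) genes and the stromal identity genes examined here were *Pdgfa*, *Pdgfb*, *Pdgfc*, *Pdgfd*, *Pdgfra*, *Pdgfrb*, *Vim* and *Thy1*, which are 8 of the 21951 protein-coding genes of GENCODE on mouse build mm10 (GRCm38). They were taken by name, and every peak within 2000 bp of any of their annotated transcription starts, in their gene bodies or within 50000 bp on either side was collected. The chromatin of primary mouse uterine stromal cells was profiled by ChIC-Seq. In this method an antibody carries micrococcal nuclease, fused to protein A/G, to its target in fixed cells, and the DNA cut there is sequenced. One antibody was against PBRM1 (BAF180), a subunit of the PBAF chromatin remodeling complex, and the other was against BRG1, the ATPase that PBAF shares with other BAF complexes. There were 3 libraries for each antibody, and 2 IgG libraries were not analysed here. All libraries came from WT mice of 8 to 12 weeks, with no strain stated, on D4, named as day 4 of pregnancy in one label and as pseudopregnancy in the protocol. Uterine horns of several mice were digested together and the cells were kept in culture for some hours before fixation. The paper calls the replicates of its browser tracks biological. Since the labels do not say that replicates came from separate cultures, the spread between replicates may still be technical.

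PDGFs are secreted dimers that bind a pair of receptor tyrosine kinases on mesenchymal cells, and the receptors pass the signal to the phosphoinositide 3-kinase and MAP kinase pathways. In the uterus the receptors are known as genes of stromal and perivascular cells. Vimentin, encoded by *Vim*, is the intermediate filament protein of mesenchymal cells, and *Thy1* encodes CD90, a surface glycoprotein of fibroblasts and T cells.

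The replicate lists held 21912 to 26363 peaks for PBRM1 and 36656 to 40610 for BRG1, from 8868777 to 16505239 and from 11506964 to 14595089 fragments. The authors also called peaks on the pooled fragments of each antibody, giving 55119 peaks for PBRM1 and 82669 for BRG1. Each peak has a fold enrichment, which is the height of its summit over the background of the same library around it, so that a value of 4 means 4 times that background. No IgG library entered the peak calls. As a check of the cell label, promoter peaks at marker genes were counted, beside a share of 51.9% of all protein-coding genes with one in all 6 replicate lists. None of the 5 leukocyte markers (*Ptprc*, *Cd68*, *Adgre1*, *Cd3e* and *Lyz2*) had a promoter peak in any replicate list. *Adgre1* did have one of 4.75 in the pooled BRG1 list. Peaks were also absent from all replicate lists at 1 of 12 mesenchymal surface and fibroblast markers and 0 of 7 epithelial markers. The former was *Ly6a*, which had no promoter peak in either pooled list. The same absence held for 2 of 5 endothelial markers and 1 of 7 smooth muscle and pericyte markers. A promoter peak in all 6 replicate lists was found at 6 of the mesenchymal markers and 1 of the epithelial markers (*Krt7*). It was also found at 1 of the endothelial markers (*Cldn5*) and 1 of the smooth muscle and pericyte markers (*Cspg4*). *Pdpn* and *Lum* had one in 2 lists and *Dcn* in 1. In the pooled lists all 7 epithelial markers had peaks of both antibodies, as had 10 of the 12 mesenchymal markers for PBRM1 and 11 for BRG1. In the replicate lists the share of the mesenchymal markers was thus not above that of all genes. A peak is not expression, and the makeup of the cells was not tested.

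All 8 genes carried a promoter peak in both pooled lists. This was also the case for 68.7% of all protein-coding genes in the pooled PBRM1 list and for 72.1% in the pooled BRG1 list. Each of the 8 had at least 1 promoter peak in every one of the 6 replicate lists, compared with 51.9% of protein-coding genes. With peaks limited to a −log10 q of 5 or more this held for 4 of the 8 and for 42.5% of protein-coding genes, with *Pdgfb* at 2 lists, *Pdgfrb* at 3, *Pdgfa* at 4 and *Pdgfc* at 5. A promoter peak counted at any start, and the 8 genes had a median of 4.5 starts, compared with 3 for all protein-coding genes. The shares were not matched for this number. The background shares are high, so a promoter peak was a common property of genes in these cells. The genes differed in where the peak lay. At *Pdgfd*, *Vim* and *Thy1* a peak covered the 5′-most start in all 8 lists, whereas at *Pdgfra* no list had a peak over it. For 6 genes 1 promoter site, made by merging overlapping peaks of all 8 lists, held a peak of each of the 6 replicate lists. Peaks in such a site need not overlap each other. At *Pdgfc* and *Pdgfrb* the peak of PBRM1 replicate 3 did not overlap that of PBRM1 replicate 1. At *Pdgfa* and *Pdgfb* the peaks of the lists fell into different sites. Neither the share of all genes with such a shared site nor that with a peak over the first start was computed. These counts thus describe the 8 genes and do not set them apart from others.

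**Figure D1:**
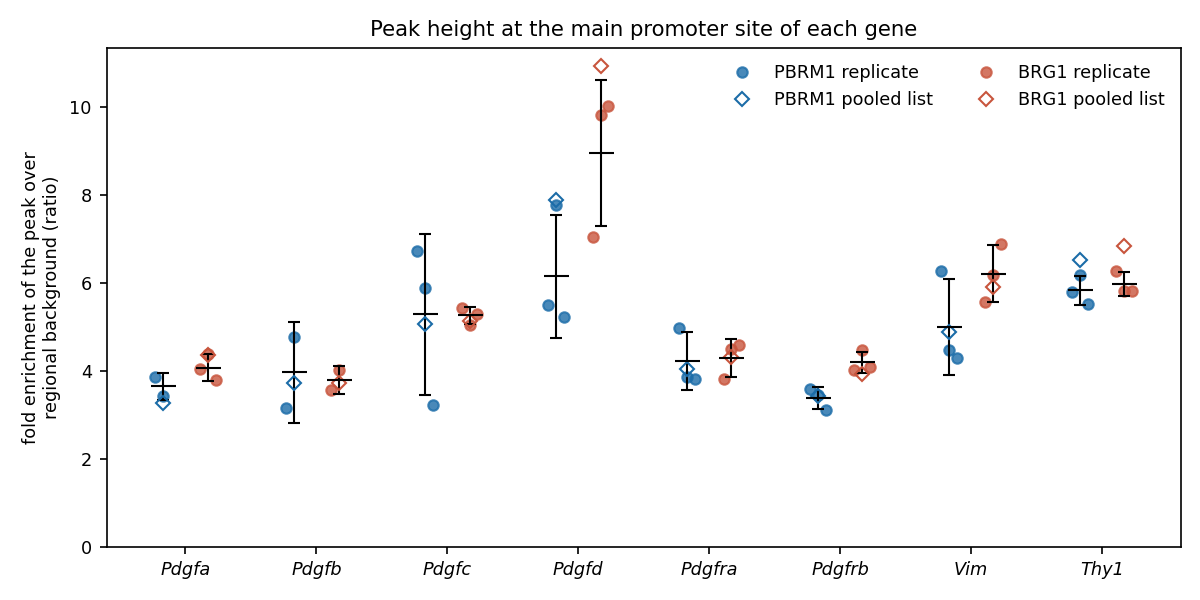
Fold enrichment of the peak at the main promoter site of each gene (y axis, ratio to regional background), with a filled point for each replicate list that has a peak there, an open diamond for the pooled list, and the mean ± SD of the replicates in black. *Pdgfd* is highest, at 7.89 and 10.9 in the pooled lists, and the other genes have pooled values of 6.85 or less.

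The fold enrichments of the promoter peaks were low for most of these genes. In the pooled PBRM1 list, the strongest promoter peak of the 8 genes had a median fold enrichment of 4.47, compared with 6.91 over the 15072 protein-coding genes with a promoter peak. In the pooled BRG1 list the medians were 4.75 and 8.75, the latter over 15830 genes. Only *Pdgfd* stood above the median of all genes in either list. Its promoter peak had a fold enrichment of 7.89 for PBRM1, at the percentile 63.4 of genes with a peak, and of 10.9 for BRG1, at the percentile 71.4. At the other end, *Pdgfa* with 3.42 and *Pdgfrb* with 3.43 stood at the percentiles 4.60 and 4.67 for PBRM1. For BRG1 the lowest were *Pdgfb* with 3.72 and *Pdgfrb* with 3.92, at the percentiles 4.59 and 5.55. No test was made of this difference between the 8 genes and the rest. The coverage at the summit of the main promoter site, which is not divided by background, ranked the genes otherwise. In the pooled BRG1 list it was 109 at *Vim*, 90 at *Pdgfa*, 80 at *Pdgfra*, 70 at *Thy1* and 68 at *Pdgfrb*. It was 67 at *Pdgfd*, 47 at *Pdgfc* and 45 at *Pdgfb*. In the pooled PBRM1 list it ran from 38 at *Pdgfb* and 42 at *Pdgfd* to 69 at *Vim*.

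**Figure D2:**
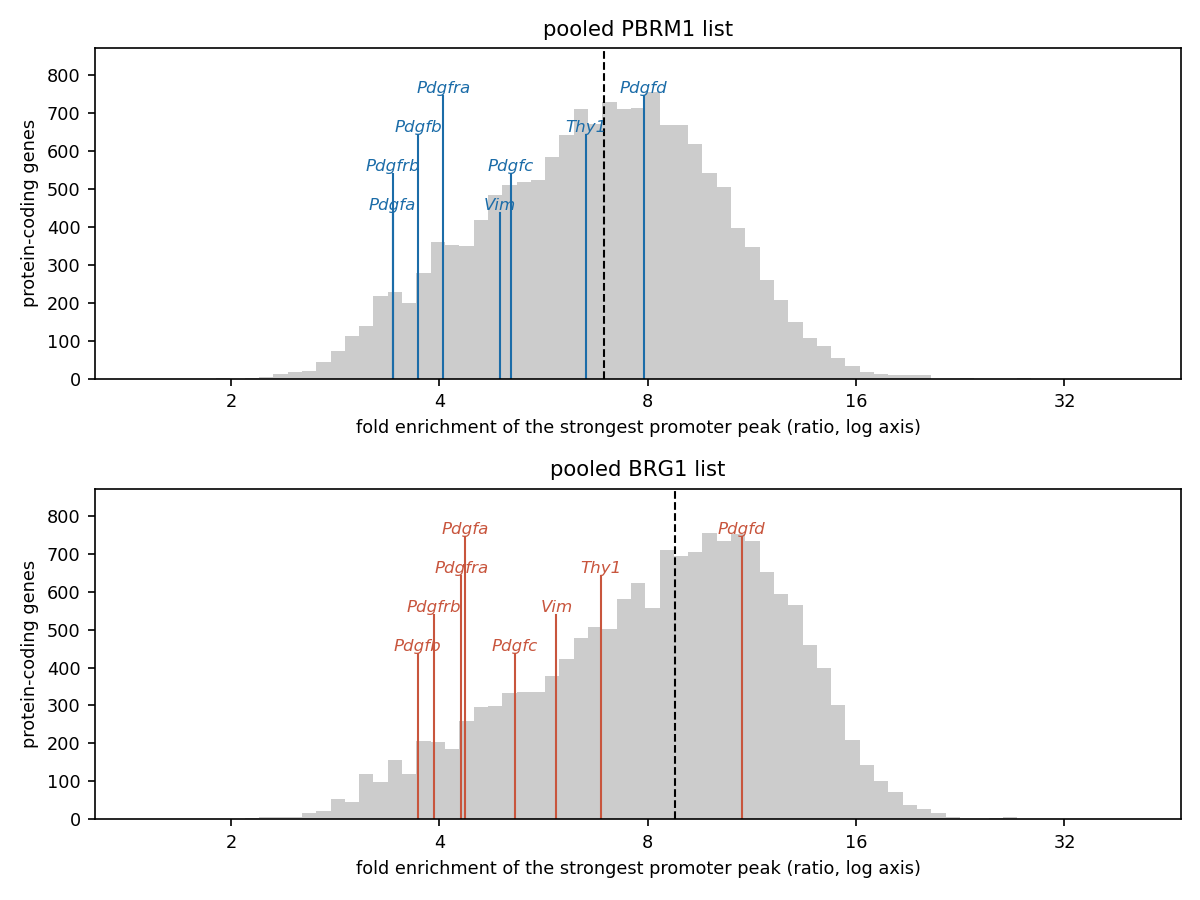
Fold enrichment of the strongest promoter peak (x axis, log scale) over all protein-coding genes with such a peak in the pooled PBRM1 list (top) and the pooled BRG1 list (bottom), with the number of genes on the y axis, the median as a dashed line and the 8 genes as coloured lines. In both panels 7 of the 8 genes lie left of the median and *Pdgfd* lies right of it.

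Among the ligands, *Pdgfd* encodes a chain that must be cut by a protease before it binds its receptor. Its single promoter site, chr9:6168267-6168903, had its PBRM1 summit 54 bp before the first start in the pooled list. The fold enrichment was 5.49, 7.76 and 5.21 in the 3 PBRM1 replicates (6.16 ± 1.40, SD, n = 3) and 7.04, 9.81 and 10.0 in the 3 BRG1 replicates (8.96 ± 1.66, SD, n = 3). The ranges of the antibodies overlapped, since PBRM1 replicate 2 lay above BRG1 replicate 1, and the difference gave p = 0.2 (two-sided exact permutation test). With 3 against 3 libraries this test cannot go below 0.1. Apart from the promoter, the *Pdgfd* locus was nearly empty. In 310 kb it held 4 sites, of which the 3 others lay in introns and were found in no PBRM1 list, and its pooled densities of 0.322 PBRM1 and 0.967 BRG1 peaks per 100 kb were the lowest of the 8 genes. The 200 bp before the first start, chr9:6168384-6168583 on the plus strand, are shown because they hold the summits of both pooled lists. They have 61.5% G and C and 9 CpGs, and hold none of the motifs searched.
Pdgfd, before the first start: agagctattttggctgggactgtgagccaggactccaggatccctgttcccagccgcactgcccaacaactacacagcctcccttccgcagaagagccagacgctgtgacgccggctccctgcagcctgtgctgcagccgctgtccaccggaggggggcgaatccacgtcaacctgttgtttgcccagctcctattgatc

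The motifs searched, on both strands of windows of 200 bp, were the AP-1 motif TGANTCA, the cyclic AMP response element TGACGTCA, the CCAAT box with those letters, the GC box GGGCGG, the TATA box TATAAA, the GATA motif AGATAA and the CArG box. Each motif was counted by itself, also where 2 overlapped. Capitals in the printed sequences mark a match, which is a description of letters and not a bound factor. The sequences were read from the RefSeq copy of GRCm38.p6 in the direction of the gene. Before the first start of all 21933 protein-coding genes with a full window, 37.5% of windows held a GC box, 31.7% a CCAAT box, 9.29% a TATA box and 4.81% an AP-1 motif. Around the 55071 pooled PBRM1 summits these shares were 22.3%, 18.2%, 4.50% and 7.12%.

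**Figure D3:**
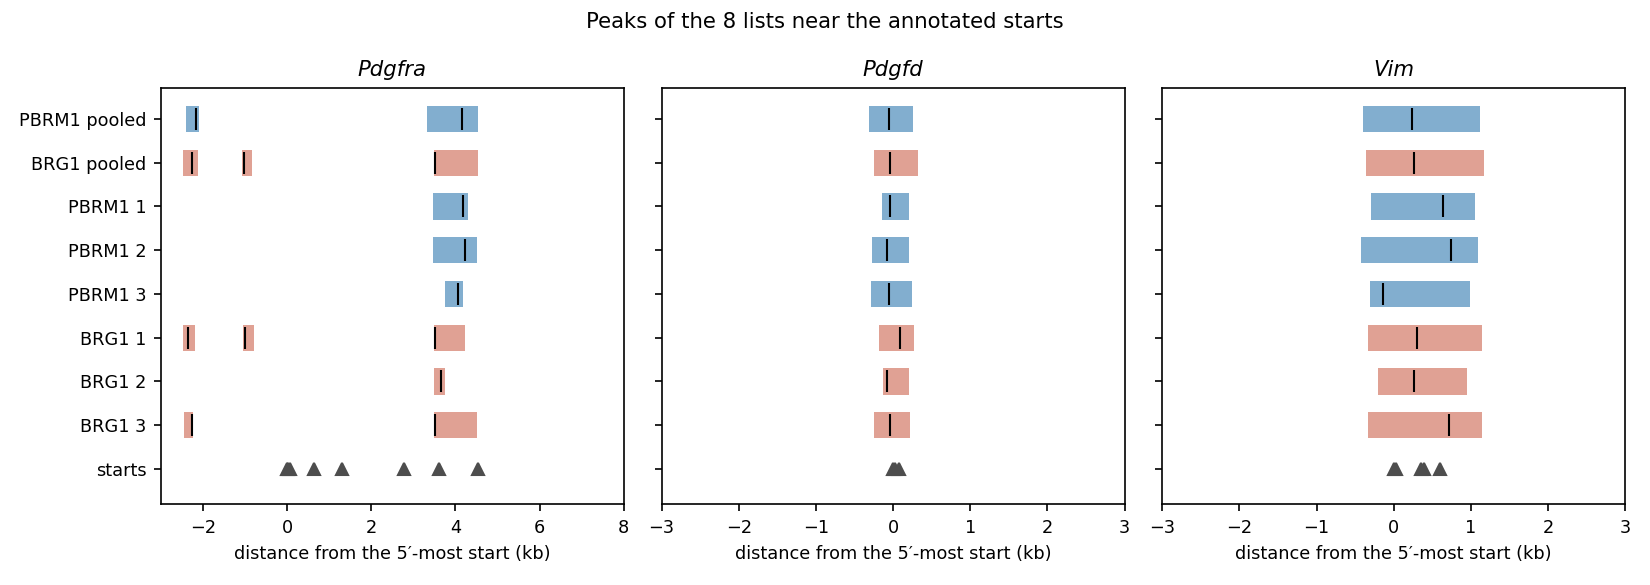
Peaks (bars) and their summits (black ticks) in the 2 pooled and 6 replicate lists around the 5′-most start of *Pdgfra*, *Pdgfd* and *Vim*, with distance from that start in kb on the x axis, one row for each list, and annotated starts as triangles. At *Pdgfra* no bar covers position 0, and at the site near 4 kb the PBRM1 summits lie further into the gene than the BRG1 summits.

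*Pdgfc*, the other ligand that needs a protease, had 1 promoter site at chr3:81036412-81037814 that was found in all 6 replicate lists. The PBRM1 replicates gave 6.73, 5.88 and 3.23 (5.28 ± 1.83, SD, n = 3) and the BRG1 replicates 5.43, 5.05 and 5.30 (5.26 ± 0.194, SD, n = 3). PBRM1 replicate 3 was low, and its summit lay 1095 bp past the start, compared with 314 and 478 bp in PBRM1 replicates 1 and 2. The peak of PBRM1 replicate 3 did not overlap that of PBRM1 replicate 1. The 9 sites in the body of *Pdgfc*, all in introns, were each found in 1 replicate list or none.

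*Pdgfa* and *Pdgfb* encode the classic chains that are secreted in active form. *Pdgfa* has 7 annotated starts and 4 promoter sites, and no promoter site was found in all 6 replicate lists. The main one, chr5:138995901-138996568, lay 1317 bp past the first start, with fold enrichments of 3.87 and 3.43 in PBRM1 replicates 1 and 2, no peak in PBRM1 replicate 3, and 4.05, 4.38 and 3.78 in the BRG1 replicates. Another site, 76 bp before the first start, had peaks in all 3 BRG1 replicates (3.87 ± 0.363, SD, n = 3) and in no PBRM1 replicate, although the pooled PBRM1 list had one of 2.57. The one at -1004 bp from the first start had peaks in PBRM1 replicates 1 and 3, of 2.77 and 4.26, and in no BRG1 list. An antisense gene, *6330403L08Rik*, starts within 2000 bp of the main site, and its peaks cannot be assigned to one of the genes. The same holds for *Gm41361* at the main site of *Pdgfb* and *Gm39323* at that of *Thy1*.

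The site of the *Pdgfa* locus with the highest fold enrichment was not at a start. It lay 17.9 kb upstream, at chr5:139014944-139015476, outside the gene and with no start of a protein-coding gene within 2000 bp. The PBRM1 replicates gave 5.91, 5.82 and 5.86 (5.86 ± 0.0475, SD, n = 3) and the BRG1 replicates 7.90, 8.48 and 8.85 (8.41 ± 0.478, SD, n = 3). All 3 BRG1 values lay above all 3 PBRM1 values, with p = 0.1, the smallest this exact permutation test can give, and an adjusted p of 0.25 over the 10 sites with peaks in all 6 replicate lists. The 200 bp around its pooled PBRM1 summit, chr5:139015144-139015343 on the minus strand, are shown because they hold 2 AP-1 motifs, which stand in capitals.
Pdgfa, 17.9 kb upstream: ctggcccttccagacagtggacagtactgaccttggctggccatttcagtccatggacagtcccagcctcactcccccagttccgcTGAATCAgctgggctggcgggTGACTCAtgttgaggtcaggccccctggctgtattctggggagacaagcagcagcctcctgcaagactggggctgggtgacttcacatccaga

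At *Pdgfb* the promoter peaks were low and scattered over 3 sites. The main one, chr15:80012159-80013316, lay in an intron 2102 bp past the first start and 328 bp past another start, and was found in PBRM1 replicates 1 and 2 (3.15 and 4.77) and in BRG1 replicates 1 and 3 (3.57 and 4.02). The site over the first start was found in PBRM1 replicate 3 (3.47) and BRG1 replicates 1 and 2 (3.96 and 3.52). No promoter site of *Pdgfb* was thus shared by all lists. The site of the locus in the most replicate lists was 64.3 kb past the first start, downstream of the gene, where 5 replicate lists had a peak of 4.02 to 7.23 and where the window around the summit held 1 AP-1 motif.

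*Pdgfra* encodes the receptor that binds most PDGF dimers and is a common marker gene of uterine stroma. It has 9 annotated starts on the plus strand of chromosome 5, the first at 75152292. No list had a peak over this first start. The nearest edge of a peak, on either side, was 3234, 3471 and 3755 bp away in the PBRM1 replicates and 796, 3493 and 2247 bp away in the BRG1 replicates. It was upstream of the start in PBRM1 replicate 1 and BRG1 replicates 1 and 3, and inside the gene in the others. The pooled PBRM1 list had a peak that ended 2083 bp before the start, just outside the 2000 bp limit. When only the 5′-most start of each gene was used, a choice made after these values were seen, *Pdgfra* was the gene that lost its pooled PBRM1 promoter peak, and 1 of the 6 replicate lists, BRG1 replicate 1, retained a peak.

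The promoter site of *Pdgfra* that all 6 replicate lists shared was inside the gene, at chr5:75155622-75156834, in an intron of the longer transcripts and around internal starts. Its fold enrichment was 4.98, 3.86 and 3.82 in the PBRM1 replicates (4.22 ± 0.660, SD, n = 3) and 3.80, 4.49 and 4.59 in the BRG1 replicates (4.29 ± 0.426, SD, n = 3), and these ranges overlapped. The summits did not. They lay 4182, 4216 and 4054 bp past the first start for PBRM1 and 3515, 3648 and 3518 bp past it for BRG1, a mean difference of 590 bp. The exact permutation test gave p = 0.1, the smallest it allows, and 0.6 after adjustment over the 6 genes with summits in all 6 lists. It was the only one of these 6 genes whose summits did not overlap between the antibodies. The same held for 23.0% of the 13091 sites of the genome with peaks in all 6 replicate lists. There the median difference between the mean summits was 60 bp, over sites of any width. The pooled peaks of the *Pdgfra* site were wide, with 1213 bp for PBRM1 and 1052 bp for BRG1. The median widths over those lists were 380 and 324 bp. BRG1 replicate 2 had 2 peaks in the site, of which the stronger was used. *Gm42802* and *Gm42803* also start within 2000 bp of the site, and its peaks cannot be assigned to one gene.

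Further into the gene, 22.6 kb past the first start, an intronic site at chr5:75174662-75175166 had peaks in PBRM1 replicates 1 and 2 (5.48 and 4.59), none in PBRM1 replicate 3, and in all 3 BRG1 replicates (4.25, 5.39 and 3.20). Its pooled values of 5.68 for PBRM1 and 5.40 for BRG1 were above those of the promoter site, 4.05 and 4.30. The microRNA gene *Mir7025* starts within 2000 bp of it. Of the 21 sites in the bodies of the 8 genes outside promoters, this was the one found in the most replicate lists.

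Windows of 200 bp of *Pdgfra*, all on the plus strand, are shown to set the first start without a peak beside the sites with peaks. The window before the first start, chr5:75152092-75152291, had 47% G and C and 2 CpGs. Around the pooled PBRM1 summit of the internal site, chr5:75156338-75156537, it was 68% with 18 CpGs and 1 GC box, in capitals. The intronic window, chr5:75174792-75174991, had 57.5% and 7 CpGs. The median over windows before the first start of all protein-coding genes was 55% G and C.
Pdgfra, before the first start: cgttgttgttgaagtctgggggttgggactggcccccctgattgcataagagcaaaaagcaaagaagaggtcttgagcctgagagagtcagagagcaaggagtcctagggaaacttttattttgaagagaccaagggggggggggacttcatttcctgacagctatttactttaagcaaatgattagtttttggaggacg
Pdgfra, internal site, PBRM1 summit: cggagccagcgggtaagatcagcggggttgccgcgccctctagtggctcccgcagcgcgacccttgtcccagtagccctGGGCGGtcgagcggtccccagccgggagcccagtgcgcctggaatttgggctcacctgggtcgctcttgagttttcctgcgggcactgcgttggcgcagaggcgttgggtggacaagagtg
Pdgfra, intronic site: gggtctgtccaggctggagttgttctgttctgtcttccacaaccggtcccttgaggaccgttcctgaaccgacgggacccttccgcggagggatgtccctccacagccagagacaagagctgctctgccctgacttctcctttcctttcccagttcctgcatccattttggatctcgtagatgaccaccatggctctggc

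*Pdgfrb* encodes the receptor known from pericytes and other perivascular cells as well as stroma. Its promoter site lay around the first start and was found in all 6 replicate lists. The pooled summits were at 148 bp for PBRM1 and -401 bp for BRG1 from that start, and those of the replicates ran from -464 to 314 bp. The peaks of PBRM1 replicates 1 and 3 did not cover the start, with gaps of 44 and 278 bp. The peak of PBRM1 replicate 3 overlapped that of neither other PBRM1 replicate. The values were 3.59, 3.44 and 3.10 for PBRM1 (3.38 ± 0.252, SD, n = 3) and 4.03, 4.47 and 4.09 for BRG1 (4.20 ± 0.239, SD, n = 3). All BRG1 values were above all PBRM1 values, with an exact permutation p = 0.1 and 0.25 after adjustment over the 10 sites. The PBRM1 peaks were weak calls. At the −log10 q limit of 5 the *Pdgfrb* promoter retained a peak in 3 of the 6 replicate lists, whereas *Pdgfra* retained it in 6. An intronic site 9.39 kb into *Pdgfrb* had a peak in 1 PBRM1 replicate (4.37) and in all 3 BRG1 replicates (4.31 ± 0.479, SD, n = 3), and a site 63.5 kb past the start, within the body of the neighbouring gene *Csf1r*, had peaks in 5 replicate lists, from 4.32 to 8.36.

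The genes whose promoter values were nearest to the receptors over the 6 replicate lists, as Euclidean distance between log2 fold enrichments, were *Gdf10* (0.209), *Atxn1* (0.248) and *Nptx1* (0.249) for *Pdgfra* and *Sorbs3* (0.294), *Clcf1* (0.299) and its overlapping gene model *AC109138.7* (0.299) for *Pdgfrb*. These were the nearest of 11388 genes with a promoter peak in all 6 lists.

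*Vim* had the widest promoter peak of the 8 genes. A single peak of 1159 to 1508 bp covered the first start in every replicate list, within chr2:13573506-13575101. Its fold enrichment was 6.26, 4.47 and 4.29 in the PBRM1 replicates (5.01 ± 1.09, SD, n = 3) and 5.57, 6.17 and 6.87 in the BRG1 replicates (6.21 ± 0.650, SD, n = 3), with overlapping ranges. Summits moved within the peak, from -141 to 740 bp from the start in the PBRM1 replicates. The other reproduced site of the locus, 29.3 kb upstream, was higher, with 6.61 to 8.35 for PBRM1 and 8.42 to 9.70 for BRG1, and lay at the promoter of the neighbouring gene *Trdmt1*, which encodes a tRNA methyltransferase. A site 16.9 kb upstream, away from coding starts, was found in all 3 BRG1 replicates (4.08 ± 0.252, SD, n = 3) and in 1 PBRM1 replicate (4.66). The 200 bp before the first start of *Vim*, chr2:13573727-13573926 on the plus strand, are shown with their CCAAT motif in capitals. They have 59% G and C and 8 CpGs.
Vim, before the first start: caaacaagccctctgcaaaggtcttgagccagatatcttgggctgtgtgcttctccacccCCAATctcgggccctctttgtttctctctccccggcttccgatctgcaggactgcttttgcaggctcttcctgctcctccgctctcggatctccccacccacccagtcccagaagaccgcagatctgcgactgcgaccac

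By fold enrichment, *Thy1* had the second highest promoter peak of the 8 genes in both pooled lists, at chr9:44042974-44044191. In the BRG1 replicates the mean of *Vim* was higher. The PBRM1 replicates gave 5.80, 6.17 and 5.52 (5.83 ± 0.326, SD, n = 3) and the BRG1 replicates 6.28, 5.81 and 5.81 (5.97 ± 0.272, SD, n = 3). The values were even within each antibody, and the antibodies differed by less than the spread between replicates (exact permutation p = 0.5). All summits of the replicates lay before the first start, from -243 to -59 bp. The locus was also the one with the most reproduced sites, 3 of 12, including the promoter. A site 23.7 kb past the start, at the promoter of *Usp2*, a gene for a ubiquitin protease, reached 7.28 ± 1.43 for PBRM1 and 11.2 ± 1.67 for BRG1 (SD, n = 3), and a site at 35.8 kb, chr9:44078772-44079294, 4.12 ± 1.27 and 5.38 ± 0.816.

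**Figure D4:**
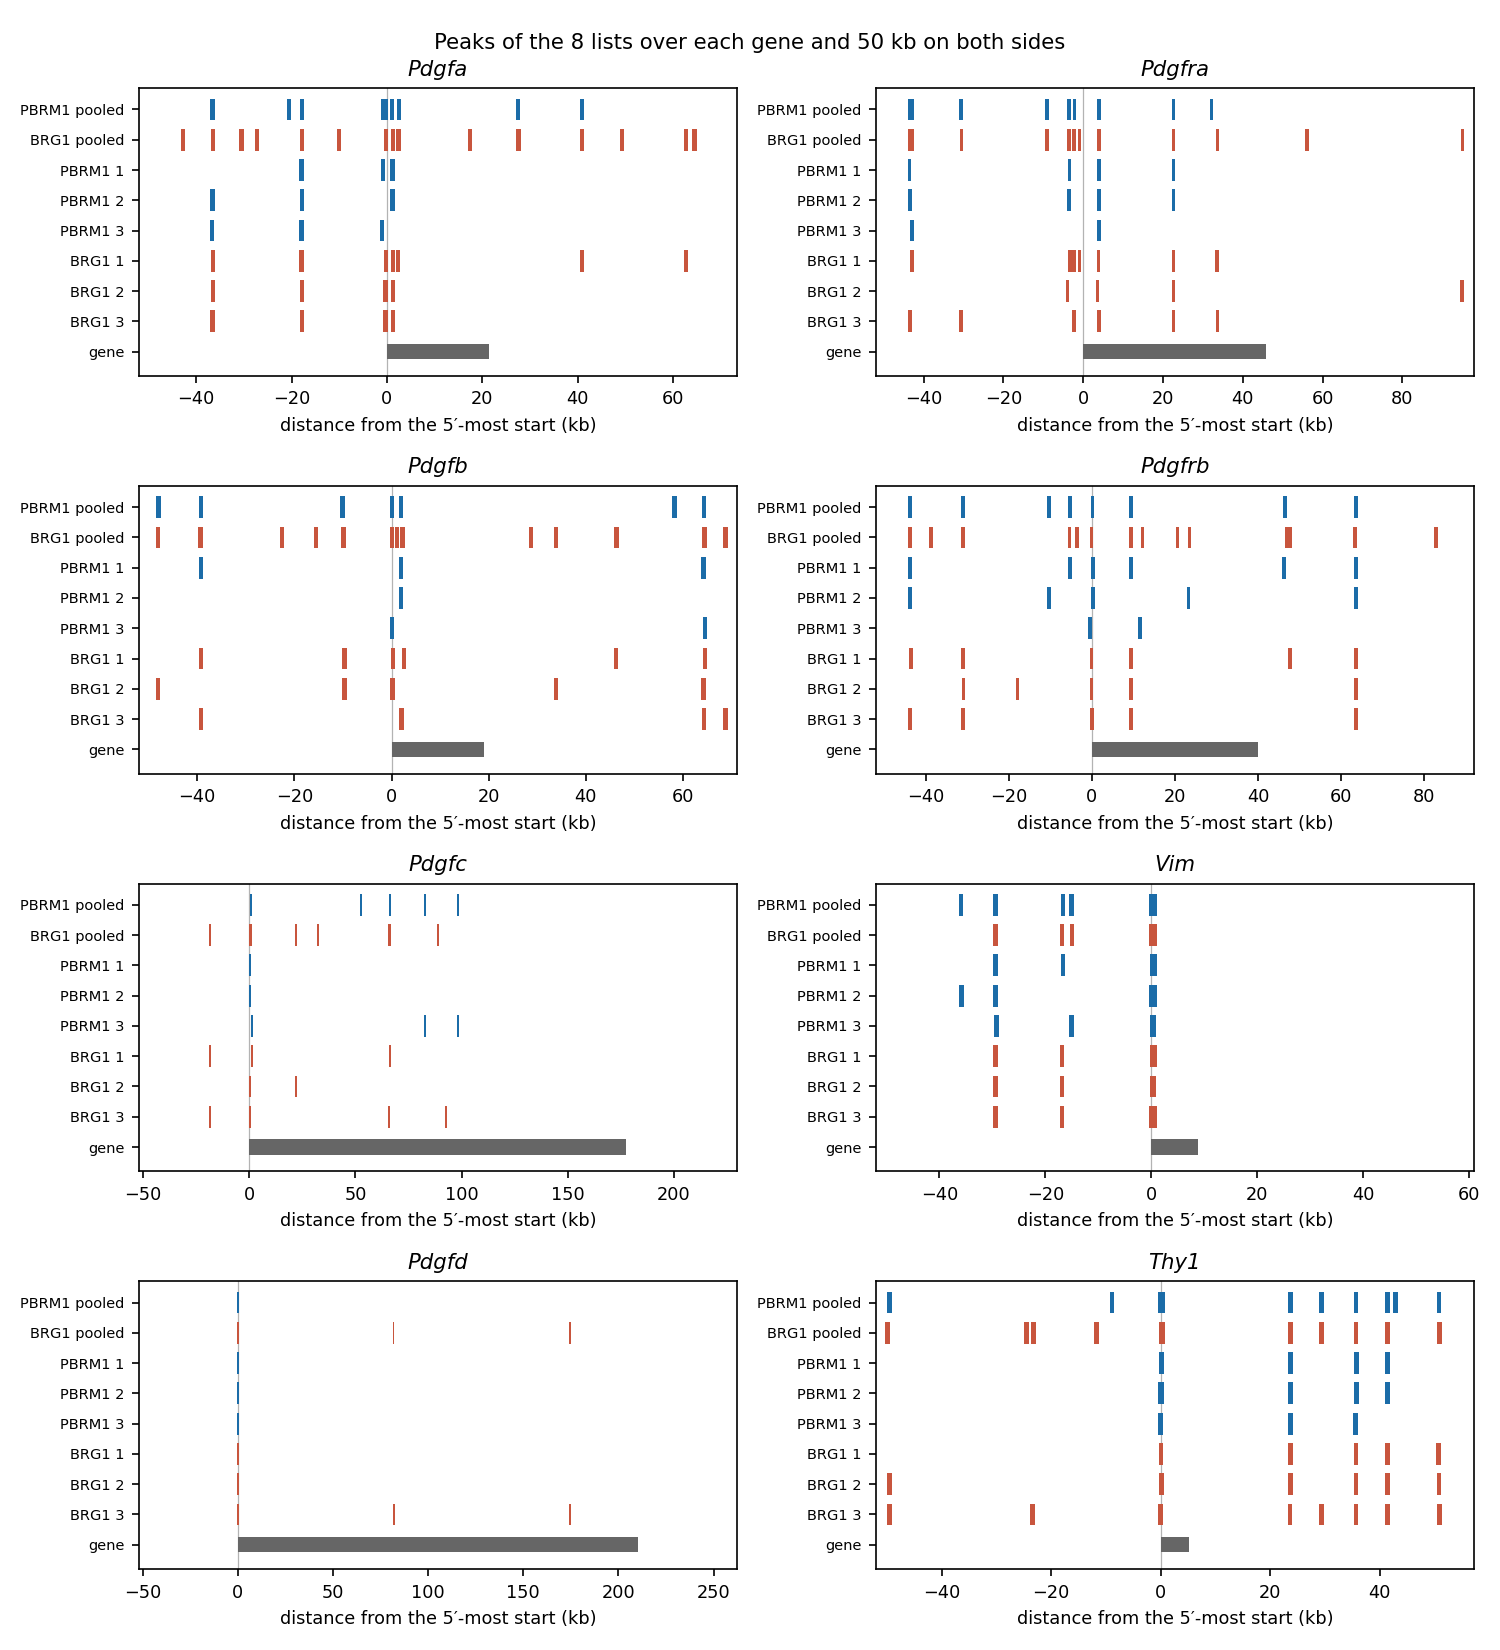
Peaks of the 2 pooled and 6 replicate lists (rows) over each of the 8 genes and 50 kb on both sides, with distance from the 5′-most start in kb on the x axis, PBRM1 in blue, BRG1 in red and the gene as a grey bar. Peaks narrower than 0.9 kb are drawn at that width. Columns of marks through all 6 replicate rows stand at the starts of *Pdgfc*, *Pdgfd*, *Pdgfrb*, *Vim* and *Thy1*, at 4.15 kb into *Pdgfra* and at 4 sites outside the genes.

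In total the 8 loci, which span 1328 kb, held 94 sites, made by merging the peaks of all 8 lists. Of these, 10 had a peak in all 6 replicate lists, 29 had one in a single replicate list and 31 were found in the pooled lists alone. Over the genome, 13091 of the 99801 sites had a peak in all 6 replicate lists. In these loci reproduced sites were mainly promoters, a split that was not computed for the genome. They made up 6 of 14 promoter sites, 0 of 21 further sites in gene bodies and 4 of 59 sites in the flanks, and 2 of these 4 were the promoters of *Trdmt1* and *Usp2*. Peaks in all 3 BRG1 replicates without any PBRM1 replicate occurred at 3 sites, namely the start of *Pdgfa*, the promoter of *Slc6a7* upstream of *Pdgfrb*, and a *Usp2* promoter near *Thy1*. All 3 did have a peak in the pooled PBRM1 list, of 2.57, 3.61 and 3.59. The reverse occurred at 0 sites. Over the 99801 sites of the genome made in the same way, these shares were 2.08% and 0.0301%. PBRM1 lists were shorter, and whether the difference in list length bears on this was not tested.

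The antibodies overlapped in the loci as they did over the genome. Of the 55 pooled PBRM1 peaks in the loci, 43 overlapped a pooled BRG1 peak (78.2%, 95% Wilson interval 65.6 to 87.1), compared with 78.6% of all pooled PBRM1 peaks. In the other direction it was 41 of 78 (52.6%, 41.6 to 63.3) and 52.4%. These intervals cover counting error only. At the 10 sites with peaks in all 6 replicate lists, the BRG1 mean was the higher at 9, and at 4 sites the replicates of the antibodies did not overlap. The latter was also found at 39.3% of the 13091 such sites of the genome, and a higher BRG1 mean at 87.3%.

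The PBRM1 replicates had 25, 23 and 19 peaks in the 8 loci (22.3 ± 3.06, SD, n = 3) and the BRG1 replicates 40, 33 and 40 (37.7 ± 4.04, SD, n = 3). The groups did not overlap, and the difference of -15.3 gave p = 0.1, the smallest value of the two-sided exact permutation test. Per 10000 peaks of the list, the counts were 10.9, 8.72 and 8.67 for PBRM1 and 9.85, 9.00 and 10.6 for BRG1. On this scale the groups overlapped, and the difference of -0.405 was smaller than the spread between replicates (p = 0.6, exact permutation test). Pooled peaks were denser around these genes than around the typical gene, with a median of 6.02 PBRM1 and 8.86 BRG1 peaks per 100 kb compared with 3.67 and 5.44 over all protein-coding genes. *Pdgfa*, with 7.42 and 12.4, and *Thy1*, with 8.56 and 9.51, were among the dense loci. *Pdgfc* and *Pdgfd* lay below the medians of all genes for both antibodies, and *Vim*, with 4.59 and 3.67, below that for BRG1. No test was made of these medians.

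**Figure D5:**
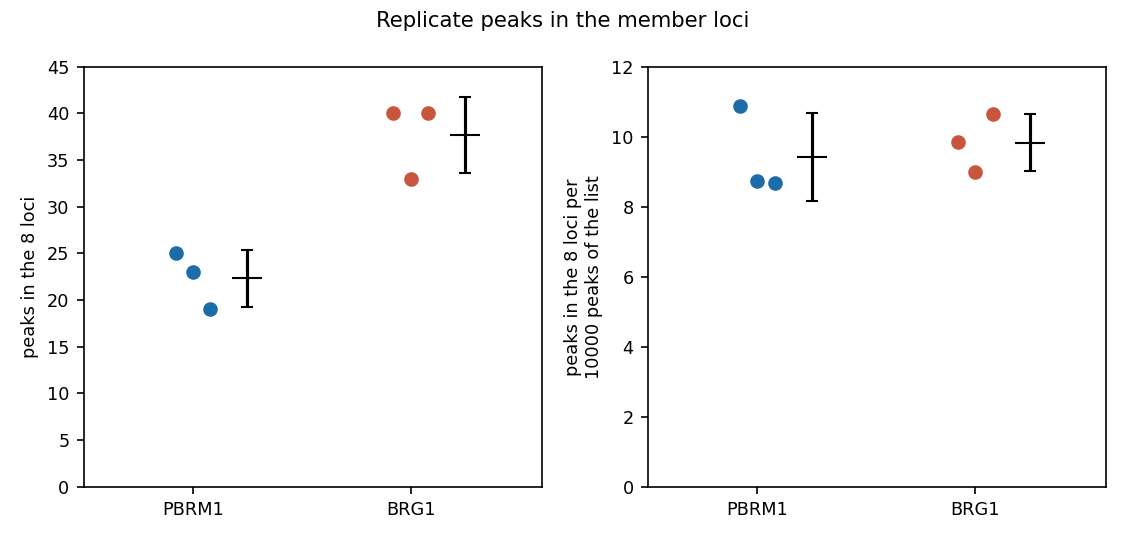
Number of peaks in the 8 loci in each replicate list (left) and the same number per 10000 peaks of the list (right), by antibody on the x axis, with the mean ± SD in black. The counts of 19 to 25 for PBRM1 lie below those of 33 to 40 for BRG1, and the scaled values overlap.

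The content of G and C around the summits of the main promoter sites ranged from 54.5% at *Thy1* to 70.5% at *Pdgfc*, with a median of 64.5%, compared with a median of 57% around all pooled PBRM1 summits. A GC box was present at 4 of the 8 main sites, those of *Pdgfa*, *Pdgfc*, *Pdgfra* and *Pdgfrb*, compared with 22.3% of all pooled PBRM1 summits and 37.5% of windows before first starts. It was present in 8 of all 14 promoter windows, among them the 4 neighbouring sites of *Pdgfa*, and in 8 of the 80 other windows. An AP-1 motif was present in 1 of 14 promoter windows and in 10 of 80 other windows (12.5%). Around all pooled PBRM1 summits, promoters and other sites together, the share was 7.12%. Among the 10 were 3 of the 9 other sites found in at least 5 replicate lists, at *Pdgfa*, *Pdgfb* and *Pdgfrb*. A CArG box was present at 2 of the 8 main sites, those of *Pdgfa* and *Thy1*, and in 1 of the 80 other windows. Its share around all pooled PBRM1 summits was 0.741%. A CCAAT box was present at 2 of the 8 main sites and in 22 of the 80 other windows (27.5%). Its share was 18.2% around all pooled PBRM1 summits and 31.7% before first starts. The TATA box was present in 1 of the 80 other windows and the GATA motif in 3, and neither at a main site. The cyclic AMP response element was in no window of these sites. These differences were not tested.

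Other genes of PDGF signaling were examined for context. Of all protein-coding genes, 68.7% had a promoter peak in the pooled PBRM1 list and 72.1% in the pooled BRG1 list. In all 6 replicate lists the share was 51.9%. All 7 genes of PDGF processing and coreceptors had pooled peaks of both antibodies at the promoter, 6 of them in all 6 replicate lists. The highest pooled PBRM1 values were those of *Pdgfrl*, a gene for a PDGF receptor-like protein, with 7.35, and of *Plau*, the urokinase gene, with 7.26. *Plat*, which encodes tissue plasminogen activator, a protease that activates PDGF-C, had one in 4 lists, with pooled values of 4.99 for PBRM1 and 10.4 for BRG1. Of 19 signal transducers, 18 had a promoter peak in all 6 lists, and *Akt1*, a kinase downstream of phosphoinositide 3-kinase, had it in 4. Their median pooled PBRM1 value was 6.52, between the 4.47 of the 8 genes and the 6.91 of all genes with a promoter peak, and it was 11.7 at *Nck1*, which encodes an adaptor protein. Of the 6 receptor kinases related to the PDGF receptors, *Kit*, the stem cell factor receptor gene, and *Kdr*, the VEGF receptor gene, had a promoter peak in all 6 lists. *Csf1r*, the receptor gene of macrophages that lies next to *Pdgfrb*, had no promoter peak in any list. Among 9 other intermediate filament genes, 4 had a peak in all 6 lists, and *Synm*, with 10.2 for PBRM1 and 11.9 for BRG1, exceeded *Vim* with 4.89 and 5.90. These lists were chosen with earlier results of these data known.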

How the data were processed

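ChIC-Seq libraries of PBRM1 (n = 3) and BRG1 (n = 3) were analysed from the peak lists deposited by the authors, 6 of single replicates and 2 of pooled fragments. Per the labels, reads were trimmed with cutadapt, aligned with Bowtie2 to GRCm38.p5 and used for peak calling. The paper states that multimapping and duplicate reads were removed after alignment. Per the file headers, MACS 2.2.7.1 called narrow peaks from paired-end fragments at a q-value of 0.05, without a control. The caller itself was set to keep duplicates, and it used the larger of the genome and 10000 bp regional backgrounds. For each peak the authors deposited the pileup (coverage signal at the summit), the fold enrichment (ratio to that background) and −log10 of p and q. Without a control, signal that does not come from the antibody is not removed from a peak's height. Fold enrichments are relative to each library, and depth differed between libraries (8868777 to 16505239 fragments).

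Peaks were compared with GENCODE vM21 transcripts on GRCm38. A promoter peak overlapped 2000 bp on either side of any start of a gene. A locus was the gene with 50000 bp on both sides, and peaks of the 8 lists that overlapped or touched were merged into a site, with the highest peak of a list taken where it had several. The main promoter site of a gene was the one in the most replicate lists. Antibodies were compared by two-sided exact permutation tests over replicates (scipy 1.17.1), with Benjamini-Hochberg adjustment within a family, and shares by 95% Wilson intervals with a minimum overlap of 1 bp. Overlap, merging and motif code was tested on simulated data. The genes named were the 8 members, the 3 genes nearest to each receptor, genes at whose promoter a peak of a locus lay, and from each context list the genes without a pooled peak or, where there were none, the 2 with the highest pooled PBRM1 value. *Kit*, *Kdr*, *Plat*, *Akt1*, *Krt7*, *Cldn5*, *Cspg4* and *Adgre1*, and *Dcn*, *Lum* and *Pdpn*, were named after their values were seen, as members of small counts. The members, lists and tests were chosen with earlier results of these data known. Summit positions, sites over the genome, the share of all genes at the stricter threshold and the use of only the 5′-most start were added after seeing the data. Some items are not reported here. Alternatives were another promoter distance, flank, transcript set, q threshold and overlap, and leaving out each replicate.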

Additional observations from a re-analysis of the deposited data

How the results depend on the processing

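Of 54 recomputed values, 50 stayed within 1.5 times the reported count, within the interval of the reported share or at the sign of the reported difference. Among the 50 are counts that could not fall, since a replicate was left out or the promoter distance was widened. With peaks limited to a −log10 q of 5 or more, the number of genes with a promoter peak in all 6 replicate lists fell from 8 to 4, which were *Pdgfd*, *Pdgfra*, *Vim* and *Thy1*, and the difference per 10000 peaks went from -0.405 to -1.44. With flanks of 100000 bp, 19 sites had a peak in all 6 replicate lists, compared with 10, since more sequence was covered. The difference in peaks per 10000 of the list, -0.405 as reported, turned to 0.239 with flanks of 20000 bp and to 0.365 with 100000 bp, none of them beyond the spread of replicates (exact permutation p = 0.8 in both). The difference in peaks was -8.67 and -22.7 with these flanks. Leaving out each replicate in turn left 8 genes throughout and gave 10 to 14 sites, with 14 without PBRM1 replicate 3. Neither count could fall, since a peak was then needed in fewer lists, so they are no test of stability. The differences ran from -17.7 to -13.7 peaks and from -1.13 to -0.000766 per 10000. With only the 5′-most starts, added after seeing the data, 7 genes had a pooled PBRM1 peak (64.8% of protein-coding genes) and 7 a promoter peak in all 6 lists (48.1%), with *Pdgfra* lost from both.

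A replicate block, in which libraries of the same number are paired, left the difference of -15.3 peaks at p = 0.25 and that of -0.405 per 10000 at p = 0.75 (exact sign-flip permutation, which cannot go below 0.25). Deviations of same-numbered libraries from their group means correlated by -0.0400, -0.0108 and -0.0112 over 13093 peaks. These values cannot decide whether same-numbered libraries shared a culture, since the spread between single libraries can hide it. Whether the numbers mark pairs is therefore unknown. The lists limit the results: a site without a peak did not pass the threshold in that library, which does not show that the protein is absent there, and the exact permutation tests cannot go below 0.1.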
